A study of Mus musculus with 18 samples.

Results

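Kidneys of TIMP2-/- mice that had undergone a sham operation were set against sham-operated WT kidneys, to ask how loss of this inhibitor alters kidney transcripts without obstruction. The comparison used the arrays labelled TIMP2-/- sham 1 to 3 and WT sham 1 to 3, which are 6 of the 18 arrays of the series, and all 22626 probe sets other than controls of the 22690 on each array. The groups used were TIMP2-/- sham, WT sham, TIMP2-/- UUO and WT UUO, with TIMP3-/- sham for side-by-side values; UUO is unilateral ureteral obstruction, the tying off of 1 ureter. Each group held 3 arrays of the right kidney, on the operated side, taken 3 days after the operation from C57BL/6 mice. The sham operation was the same surgery without the ligature. The 3 kidneys of a group are named biological replicates in the labels. Genotypes come with no allele, and the sources used here do not state sex, age or the part of Timp2 that was deleted. Values are intensities on a linear scale, and a difference is the log2 value of TIMP2-/- minus that of WT unless another pair is named.

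TIMP2 is a secreted inhibitor of matrix metalloproteinases, enzymes that cut collagens, laminins and other proteins around cells. It also has an activating role: a complex of TIMP2 with the membrane-bound enzyme MMP14 captures proMMP2 so that a free MMP14 molecule can cut it to active MMP2. In the kidney, TIMPs and their target enzymes are known for their part in the turnover of tubular basement membranes and the interstitium. Because the tissue was whole kidney, fewer cells of a type and less RNA per cell cannot be told apart in any value below.

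The 6 arrays differed broadly, and this bears on every count that follows. Correlations of log2 values across probe sets were 0.984 to 0.995 among the TIMP2-/- sham arrays and 0.98 to 0.993 among the WT sham arrays. Between genotypes they ran from 0.929, for TIMP2-/- sham 3 with WT sham 3, to 0.992. TIMP2-/- sham 1 and 2 had 0.988 to 0.992 with WT sham 1 and 2, as high as values within a genotype. On the first principal component of the 9 sham arrays, which carried 67.8% of the variance, TIMP2-/- sham arrays scored 5.98, 14.6 and 58.4, TIMP3-/- sham arrays -24.9, 34.2 and 30.8, and WT sham arrays -21.1, -20.5 and -77.5. TIMP2-/- sham 3 was the highest of the 6 arrays on 40.8% of probe sets, and WT sham 3 was the lowest on 39.9%. The 24 probe sets for the poly-A RNA spike-ins, control RNAs of bacterial genes, were all higher in the 3 TIMP2-/- sham arrays than in any WT sham array. Their median difference was 1.13, or 0.611 without WT sham 3, whereas the 18 probe sets for hybridization spike-ins had a median of 0.0367. The ratio of 3' to 5' signal was 20, 21.2 and 21.6 for pyruvate carboxylase in TIMP2-/- sham arrays, against 16.7, 16.7 and 17.3 in WT sham arrays, and for actin it was 1.48, 1.42 and 1.36 against 1.5, 1.49 and 1.52. The part of these array-wide differences in the results below was not tested.

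**Figure D1:**
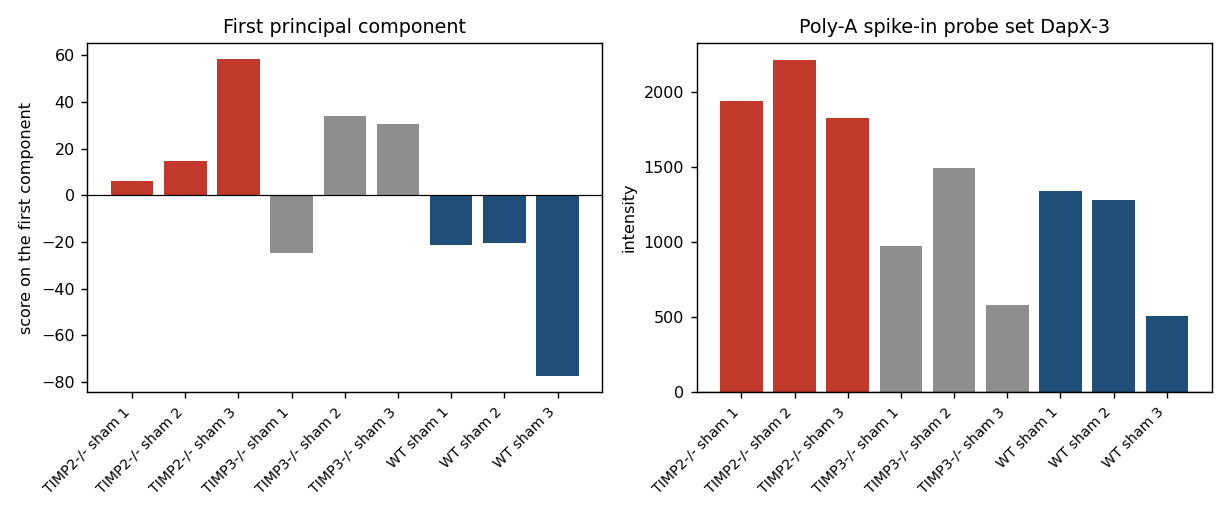
Score of each sham array on the first principal component (left, no unit) and intensity of the poly-A spike-in probe set DapX-3 (right), 1 bar per array, in the order TIMP2-/-, TIMP3-/- and WT. The 3 TIMP2-/- sham arrays lie above 0 on the component and near 2000 on DapX-3, and WT sham 3 is the lowest array on both (-77.5 and 506.8).

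Timp2 itself was lower in TIMP2-/- sham kidneys on 5 of its 6 probe sets, but none of them passed an adjusted p under 0.05. On the brightest the TIMP2-/- sham arrays read 681, 571 and 668 and the WT sham arrays 1091, 1475 and 971. The groups did not overlap, and the difference was -0.86 ± 0.16 (SE; adjusted p = 0.143 by limma). A pair of others was also lower without overlap, at -0.50 and -0.48, and another pair was lower on average with overlapping arrays, at -0.49 and -0.15. The sixth was dim, at 34.3 to 40.8 in TIMP2-/- sham arrays and 33.0 to 34.1 in WT sham arrays, and was slightly higher without overlap (0.18). The label of the TIMP2-/- sham arrays is therefore borne out by Timp2 only in part: signal on the 3 brightest probe sets stayed at 544 to 723 in TIMP2-/- sham arrays. Which of these probe sets lie outside the deleted sequence was not tested, and a probe set outside it need not report the deletion.

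After UUO the same probe sets separated further. On the brightest the TIMP2-/- UUO arrays read 832, 897 and 742, against 4205, 4689 and 3521 in WT UUO arrays, a difference of -2.32 ± 0.16 (SE; adjusted p = 1.45e-06 by limma). The same 5 probe sets passed there, with differences of -1.60 to -2.32. The WT level was higher after UUO than after sham, while the TIMP2-/- level lay within 571 to 897 after both operations. For no Timp2 probe set did the difference between operations pass (limma, smallest adjusted p = 0.191, for the brightest, where it was -1.46).

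**Figure D2:**
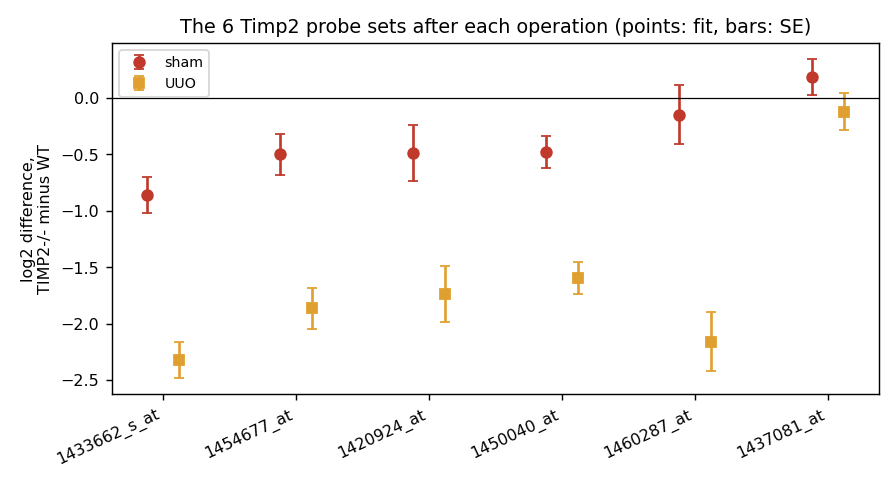
Log2 difference, TIMP2-/- minus WT, for each Timp2 probe set after sham (circles) and after UUO (squares), with the SE of the fit (n = 3 arrays in each group). After sham the differences run between -0.86 and 0.18, and after UUO 5 of the 6 lie at -1.60 or below.

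Timp2 lies on chromosome 11 on the minus strand. The 300 bases around its start, 250 before and 50 after it, are shown from RefSeq (GRCm38.p6, chr11:118355362-118355661) with the window of Myl4 (plus strand, chr11:104550413-104550712), the other gene of this chromosome that passed and has an entry there. Capitals mark GGGCGG, the GC box, in Timp2 and CCAAT in Myl4, searched on both strands. GGGCGG is in 35.7% and CCAAT in 37.4% of the 32851 such windows searched, so neither is rare.
Timp2: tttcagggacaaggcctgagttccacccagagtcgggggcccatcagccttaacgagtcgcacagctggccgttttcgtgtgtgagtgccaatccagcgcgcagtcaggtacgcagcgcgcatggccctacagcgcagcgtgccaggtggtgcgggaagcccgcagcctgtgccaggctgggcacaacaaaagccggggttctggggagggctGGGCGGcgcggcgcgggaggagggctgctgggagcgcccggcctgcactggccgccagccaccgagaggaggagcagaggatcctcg
Myl4: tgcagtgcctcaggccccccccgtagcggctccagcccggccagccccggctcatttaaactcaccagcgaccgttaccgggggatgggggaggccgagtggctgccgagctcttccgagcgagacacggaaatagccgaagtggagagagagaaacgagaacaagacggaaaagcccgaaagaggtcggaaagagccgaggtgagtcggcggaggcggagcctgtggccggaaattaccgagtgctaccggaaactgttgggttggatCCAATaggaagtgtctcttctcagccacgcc

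Across all probe sets, 5 passed an adjusted p under 0.05 (0.0221% of 22626), and all 5 were higher in TIMP2-/- sham kidneys. They were 1 probe set each of Wdfy1, BC018473 and Myl4 and a pair for which the platform annotation used here names no gene, shown by their IDs in the plot of all probe sets. This short list stands against very many small differences: 25.8% of probe sets had an unadjusted p under 0.05, 3060 of them higher and 2788 lower, and on 41.5% the arrays of the groups did not overlap, 5953 higher and 3428 lower. Without WT sham 3, 3 probe sets passed and 9.025% had an unadjusted p under 0.05. The smallest adjusted p among those that did not pass was 0.131.

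**Figure D3:**
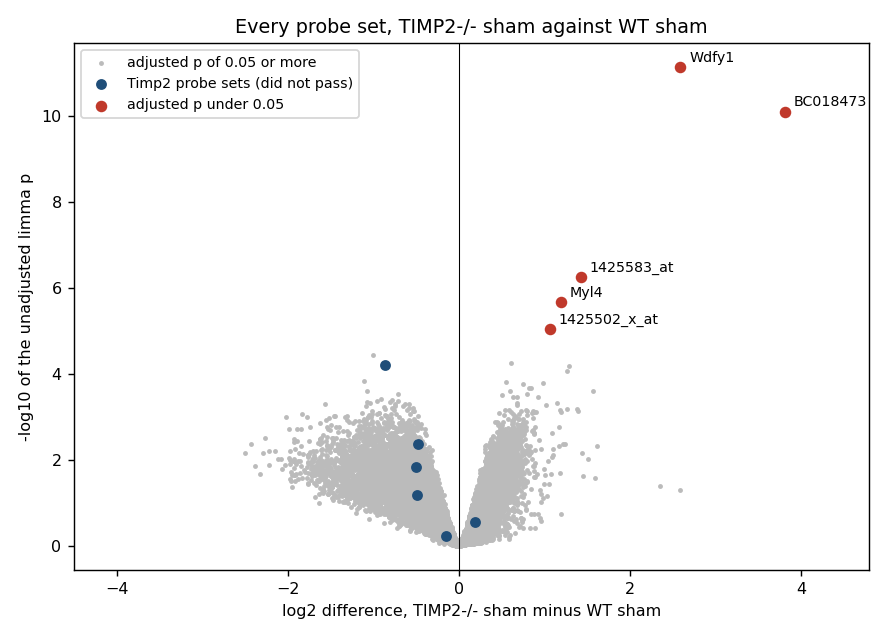
Log2 difference, TIMP2-/- sham minus WT sham, against -log10 of the unadjusted limma p, 1 point per probe set (n = 3 arrays in each group). The 5 probe sets that passed (red) all lie to the right, led by Wdfy1 and BC018473, and the 6 Timp2 probe sets (blue) lie between -0.86 and 0.18.

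Wdfy1 encodes a protein with WD40 repeats and a FYVE domain that binds phosphatidylinositol 3-phosphate on early endosomes and takes part in Toll-like receptor signalling. The probe set that passed read 610, 576 and 733 in TIMP2-/- sham arrays and 99.6, 98.8 and 120.1 in WT sham arrays. Every TIMP2-/- array stood far above every WT array, a 6.02-fold rise (log2 difference 2.59 ± 0.14, SE; adjusted p = 1.62e-07 by limma). The other 2 Wdfy1 probe sets differed less. On the second the TIMP2-/- sham arrays read 368, 624 and 499 and the WT sham arrays 125, 182 and 280. That is a difference of 1.39 without overlap (adjusted p = 0.143 by limma), and the other had a difference of 0.42 without overlap (adjusted p = 0.18 by limma). The second has the highest mean log2 value over the series, and with it standing for the gene Wdfy1 did not pass (adjusted p = 0.131 by limma). Wdfy1 passed under each of the other alternatives tried.

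BC018473 is a gene known from a cDNA clone, and no role is given for it here. On the probe set that passed the TIMP2-/- sham arrays read 274, 521 and 551, against 32.1, 32.9 and 26.7 in WT sham arrays. TIMP2-/- sham 1 was about midway between the other TIMP2-/- arrays and the WT arrays on this linear scale, and the groups were well apart (difference 3.81 ± 0.24, SE; adjusted p = 8.74e-07 by limma). The WT readings lay below the 25th percentile of the sham arrays' intensities (60.8 to 63.9), where a fold loses meaning, so the ratio of 14.1 is given as a fitted value only. A second probe set was dim in both groups (23.3 to 30.2 in TIMP2-/- sham, 19.4 to 23.5 in WT sham) and overlapped.

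Myl4, the essential myosin light chain of atrial and embryonic muscle, read 164, 143 and 182 on the probe set that passed in TIMP2-/- sham arrays and 72.2, 66.3 and 74.0 in WT sham arrays. All TIMP2-/- arrays were above all WT arrays, with a 2.29-fold rise (log2 difference 1.20 ± 0.16, SE; adjusted p = 0.012 by limma). Its brighter probe set was 236 to 240 in TIMP2-/- sham and 173 to 201 in WT sham, a difference of 0.32 that did not pass. The call depended on the spread shared over all groups and on each WT array. Its adjusted p by limma was 0.0809, 0.0643 and 0.0618 without WT sham 1, 2 and 3, 0.108 without TIMP2-/- sham 3, and 0.135 in a fit of the 6 arrays alone.

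Both unnamed probe sets were dim. One read 49.5, 56.3 and 32.5 in TIMP2-/- sham arrays and 16.4, 14.7 and 19.3 in WT sham arrays (difference 1.43, adjusted p = 0.0041 by limma), and the other read 22.4, 28.9 and 35.8 in TIMP2-/- sham arrays and 13.7, 14.8 and 12.4 in WT sham arrays (difference 1.07, adjusted p = 0.04). The groups did not overlap on either probe set. In a fit of the 6 arrays alone both had an adjusted p of 0.135 by limma, and without WT sham 2 they had 0.0516 and 0.0697. The second also lost its call without any other 1 array except TIMP2-/- sham 1, at adjusted p-values of 0.14 to 0.268.

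The genotype difference was measured a second time in TIMP2-/- UUO and WT UUO kidneys, which share no array with the sham comparison. There 11 probe sets passed (0.0486% of all tested), 6 higher and 5 lower, and 2 of the 5 that passed after sham were among them in the same direction. The Wdfy1 probe set read 496, 521 and 484 in TIMP2-/- UUO arrays and 94.2, 106.6 and 75.5 in WT UUO arrays, a difference of 2.46 (adjusted p = 3.52e-07 by limma). BC018473 read 257, 273 and 265 in TIMP2-/- UUO arrays and 20.2, 21.4 and 20.2 in WT UUO arrays, a difference of 3.68 (adjusted p = 1.45e-06 by limma). Both of these probe sets were thus well separated by genotype under either operation. Their differences changed by -0.13 each between operations (adjusted p = 0.8 and 0.895 by limma). The other Wdfy1 probe sets had larger differences after UUO than after sham. Their changes of 1.06 and 0.44 did not pass (adjusted p = 0.551 and 0.567 by limma). Myl4 was higher without overlap after UUO, at 93.1, 112 and 130.0 in TIMP2-/- UUO arrays and 75.0, 72.0 and 79.8 in WT UUO arrays, but did not pass (difference 0.55). The unnamed pair (0.74 and 0.48) also lay higher without overlap and did not pass. The other 9 probe sets that passed after UUO were the 5 of Timp2, the second one of Wdfy1 (2.45), Iapp (0.74), 1 of Prkca (0.90) and another unnamed one (1.74). Sham differences of Iapp (0.09), this Prkca probe set (0.15) and the unnamed one (0.03) did not pass and had overlapping arrays.

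TIMP3-/- sham kidneys, compared with the same WT sham arrays, give the level of these genes in another knockout. Wdfy1 read 122, 98.3 and 106 there, and BC018473 read 18.1, 33.2 and 29.7, with differences from WT sham of 0.04 and -0.22. Both sets of readings lay among the WT readings or near them. Myl4 read 74.6, 101.2 and 100.7, a difference of 0.37 that did not pass. These comparisons share the WT sham arrays with those of TIMP2-/-.

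**Figure D4:**
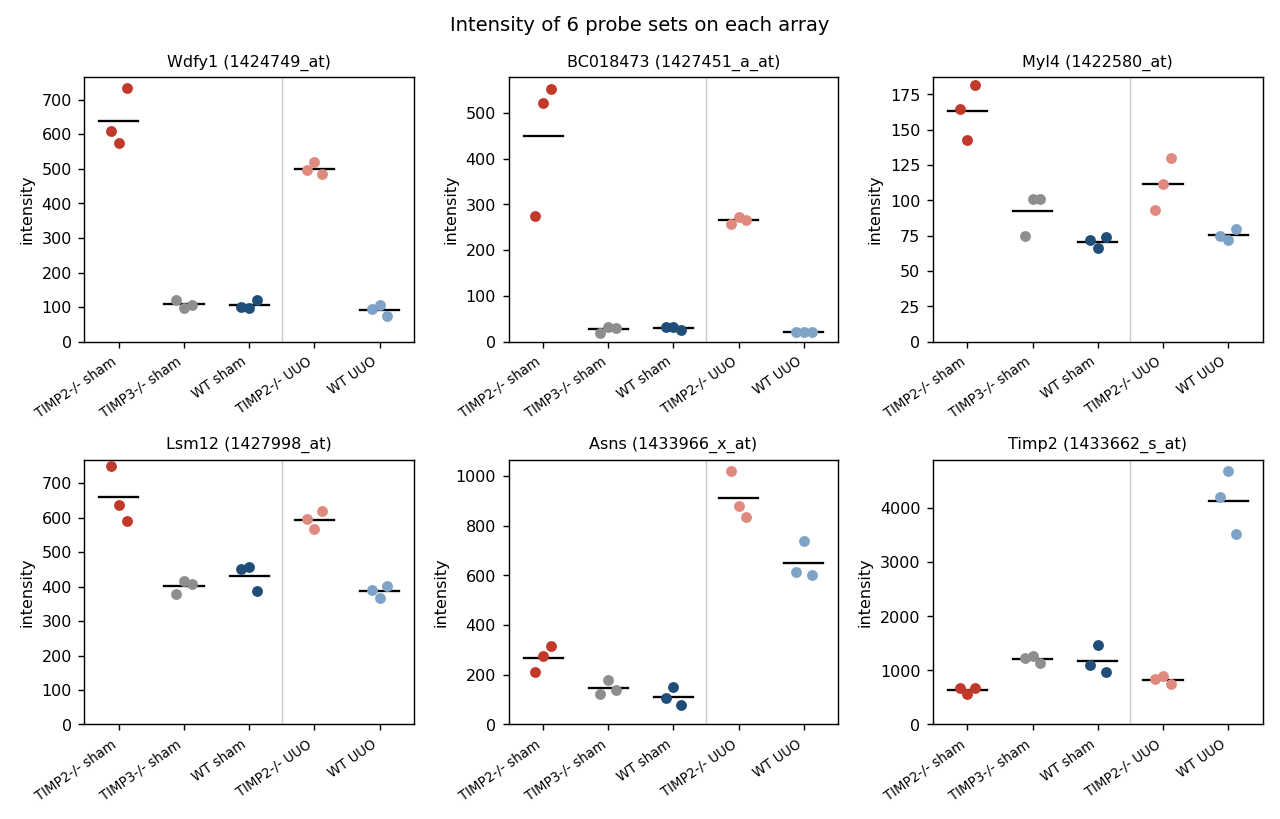
Intensity on each array (points, 3 per group) and group mean (line) of 6 probe sets, for TIMP2-/- sham, TIMP3-/- sham and WT sham to the left of the grey line and TIMP2-/- UUO and WT UUO to the right. Wdfy1 and BC018473 are high in both TIMP2-/- groups and low in the other 3 groups, and the WT level of Timp2 is higher after UUO.

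BC018473 lies on the chromosome of Timp2, 49 RefSeq genes before it in chromosomal order. Myl4 lies 356 genes before Timp2 on the same chromosome, and Wdfy1 lies on chromosome 1. The nearest measured genes, 15 on each side of Timp2, reached 44 RefSeq genes before it and 49 after it. BC018473, which passed, lay outside them. Of these 30 genes 0 passed by limma, and 13 were higher and 0 lower at an unadjusted p under 0.05. Over all 12393 genes, 15.7% were higher by that rule and 12.4% lower. The arrays did not overlap for 18 of the 30 genes in the higher direction and for 1, Tnrc6c (-0.17), in the lower one; over all genes 44.8% did not overlap in either direction. The 18 were Tmc6, Syngr2, Tk1, Afmid, Tha1, Pgs1, Cyth1, Lgals3bp, Cant1, C1qtnf1, Cbx2, Cbx8, Gaa, Card14, Sgsh, Chmp6, Baiap2 and Cep131. Lgals3bp, a secreted glycoprotein that binds galectins, had the largest difference of the 30: it read 1408, 1454 and 2262 in TIMP2-/- sham arrays and 928, 1056 and 976 in WT sham arrays (0.76; adjusted p = 0.143 by limma). The median difference of the 30 neighbours was 0.371, or 0.27 without WT sham 3, beside 0.139 and 0.0991 for all genes. After UUO their median was 0.0751, beside 0.0422 for all genes. In TIMP3-/- sham kidneys, set against the same WT arrays, all of the 30 but Srsf2 (-0.04), Mfsd11 (-0.09) and Tnrc6c (-0.04) had positive differences. The largest there was 0.62 (Birc5), and Lgals3bp had 0.48.

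A total of 423 probe sets were without overlap in the same direction after both operations, 266 higher and 157 lower, and 220 in opposite directions. The 423 make up 4.509% of the 9381 probe sets without overlap after sham and 21.68% of the 1951 without overlap after UUO. Of all probe sets, 41.5% were without overlap after sham and 8.62% after UUO, in either direction. Among the 423 was Lsm12, an Lsm-domain protein that binds RNA, with 749, 638 and 589 in TIMP2-/- sham arrays against 452, 456 and 387 in WT sham arrays. After UUO Lsm12 read 597, 567 and 620 in TIMP2-/- arrays against 390, 368 and 401 in WT arrays. All 3 TIMP2-/- arrays were above all 3 WT arrays in either operation, with differences of 0.61 and 0.62 that did not pass (adjusted p = 0.143 and 0.0807 by limma). With 50 added to each intensity before log2, Lsm12 passed after sham (adjusted p = 0.0431 by limma). Lsm12 lies 446 RefSeq genes before Timp2. Of 84 placed genes with an unadjusted p under 0.05 in the same direction after both operations, 13 (15.48%) lay on chromosome 11, which holds 8.416% of all placed genes. For genes without overlap in the same direction after both, it was 40 of 340 (11.76%). Timp2, the targeted gene, is itself counted in the 13 and in the 40.

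Among genes that did not pass, Lsm12 had the smallest p on the higher side by the naming rule, and none of the genes named next passed (each adjusted p = 0.143 by limma). Asns, asparagine synthetase, read 210, 277 and 314 on 1 probe set in TIMP2-/- sham arrays, against 107, 152 and 78.0 in WT sham arrays (1.28), and its other probe set had a difference of 0.80. Phgdh, the first enzyme of serine synthesis, read 877, 1015 and 1346 in TIMP2-/- sham arrays and 478, 683 and 473 in WT sham arrays (0.99). Its other 3 probe sets had differences of 0.46 to 0.87, all without overlap. The TIMP3-/- sham differences were 0.41 for Asns and 0.31 for Phgdh on these probe sets, and after UUO the TIMP2-/- differences were 0.49 and 0.38. Ctse, the aspartic protease cathepsin E, had 223, 353 and 334 in TIMP2-/- sham arrays and 72.1, 105.6 and 132 in WT sham arrays (1.57, and 1.02 after UUO). Its other probe set overlapped after both operations, with a difference of 0.28 after sham and, in the opposite direction, -0.78 after UUO.

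The other genes of this higher group were Clcn7, a lysosomal chloride-proton exchanger (0.75), Mapk12, a p38 kinase (0.82), Itpr3, an inositol trisphosphate receptor (0.79), and Zdhhc14, a palmitoyltransferase (0.64). The other 5 Zdhhc14 probe sets had differences of 0.24 to 0.49 and 2 of them overlapped, while the other probe set of Clcn7 had 0.40 and that of Zfp467, another gene of the group, had 0.46. The group also included Unc119, a carrier of lipid-modified proteins (0.68), the zinc finger gene Zfp467 (0.68), the cyclic nucleotide-binding domain gene Cnbd2 (0.93) and the orphan receptor gene Mrgprh (0.51). Mrgprh was dim, at 28.84 to 32.95 in TIMP2-/- sham arrays and 20.9 to 22.2 in WT sham arrays. These readings lay below the 25th percentile of the sham arrays' intensities (60.8 to 63.9). On the probe sets named, none of these 8 genes except Unc119, at 0.10, kept its arrays apart after UUO. Cnbd2 had 0.38 there and the others -0.02 to 0.16. Another Zdhhc14 probe set was higher without overlap after UUO (0.21). Against the same WT sham arrays, TIMP3-/- sham kidneys had differences of 0.33 to 0.51 for Clcn7, Mapk12, Itpr3, Zfp467, Zdhhc14 and Unc119, of 0.07 for Mrgprh and of -0.01 for Cnbd2.

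On the lower side no probe set passed, and 15.2% of all probe sets were lower without overlap. Timp2 had the smallest p among probe sets with a gene name whose arrays did not overlap. The next were Rell1, a relative of the TNF receptor family member RELT (-1.10), Ubl3, a membrane-anchored ubiquitin-like protein (-1.07), Abca8a, a lipid transporter (-0.71), and Hspa4, an HSP70-family chaperone (-0.91). H2az1, the histone variant H2A.Z, read 3680, 2485 and 1761 in TIMP2-/- sham arrays and 5810, 4302 and 4683 in WT sham arrays (-0.95); without TIMP2-/- sham 1 it passed, at -1.23 (adjusted p = 0.0343 by limma). Its TIMP2-/- readings lay below all WT readings, as did those of Insig2, which holds sterol-regulated transcription factors in the endoplasmic reticulum (-0.80), Mgat2 (-0.74) and Slc35a3 (-0.63), both of N-glycan assembly, and Emb, the adhesion protein embigin (-1.03). Ifit1, an interferon-induced RNA-binding protein (-1.08), Vstm2a (-1.57), Ubxn4 and Herpud2, both of protein degradation at the endoplasmic reticulum (-0.78 and -0.58), and 2810002D19Rik (-0.71) completed the list. Vstm2a was dim in TIMP2-/- sham arrays, at 34.3, 28.2 and 18.8, against 87.8, 54.9 and 98.6 in WT sham arrays. Abca8a, H2az1 and Emb were lower without overlap after UUO too, at differences of -0.38, -0.33 and -0.38, and Slc35a3 was higher without overlap there (0.56). The other probe sets of H2az1 (-0.20), Emb (-0.19) and Slc35a3 (0.56) overlapped after UUO. In TIMP3-/- sham kidneys, 13 of these 14 genes other than Timp2 were below WT sham as well, at -0.09 (Abca8a) to -1.30 (Vstm2a) on the probe sets named. Ubxn4 was at 0.17 on that probe set and at -0.59 and -0.28 on its other 2, and 1 of the other Herpud2 probe sets was at 0.05.

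The remaining TIMP genes and the enzymes of MMP2 activation did not pass. Timp3, an inhibitor bound to the matrix, was lower without overlap: 5668, 4418 and 3171 in TIMP2-/- sham arrays against 6198, 7263 and 9040 in WT sham arrays (-0.79 ± 0.21, SE; adjusted p = 0.143 by limma), or -0.64 without WT sham 3. Timp4 was slightly higher without overlap (0.22), and Timp1 (0.18) and Reck, a membrane-anchored inhibitor (0.07), overlapped. Mmp2 read 198, 200 and 241 in TIMP2-/- sham arrays and 185, 187 and 118 in WT sham arrays, a difference of 0.41 without overlap, and 0.19 without WT sham 3. Mmp14 read 362, 371 and 421 in TIMP2-/- sham arrays and 371, 409 and 273 in WT sham arrays (0.15), with a difference of -0.02 without that array. Of 15 measured metalloproteinases, 0 passed by limma and 0 had an unadjusted p under 0.05, and their median was 0.183. Mmp14, Mmp23 (0.72) and Mmp11 (0.38) were the brightest of them over the 6 arrays.

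Of 13 ADAM and ADAMTS proteases, 0 passed and 2 were lower at an unadjusted p under 0.05, or 0 without WT sham 3, with a median of -0.0343. At that level 15.7% of all genes were higher and 12.4% lower, against 4.3% and 5.27% without WT sham 3, and the counts of this and the following lists are set beside these shares. Adam15 (0.15), Adam9 (-1.15) and Adam10 (-1.35) were their brightest members. Adam9 read 577, 563 and 241 in TIMP2-/- sham arrays and 770, 688 and 1619 in WT sham arrays, without overlap, and its difference without WT sham 3 was -0.77. Adam10 was -0.87 without that array. TIMP2-/- sham 3 was the lowest and WT sham 3 the highest array on both. Adam17, the enzyme that releases TNF, did not overlap (-0.70, or -0.47 without WT sham 3) and was singled out after its value was seen.

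No matrix gene passed. Of 21 interstitial matrix genes, 0 passed by limma and 0 had an unadjusted p under 0.05, and the median difference was 0.148, beside 0.139 for all genes. Bgn (0.12), Sparc (0.16) and the collagen chain gene Col1a2 (0.19) were the brightest and overlapped between groups. Of 20 basement membrane genes 0 passed, 5 were higher and 1 lower at an unadjusted p under 0.05, with the brightest, the collagen IV genes Col4a1 and Col4a2 and the laminin gene Lamb1, at -0.10, 0.22 and -0.07. Only 1 of them was higher at that level without WT sham 3. Fibroblast and smooth muscle genes had a median of 0.19, with Acta2, smooth muscle actin, at 0.54, Pdgfrb at 0.39 and Myl9 at 0.33; 0 of 14 passed and 1 was lower at an unadjusted p under 0.05, or 0 without WT sham 3. The TGF-beta pathway list had a median of 0.143, with 0 of 15 passing and 2 lower at that level, or 0 without WT sham 3. Its brightest members were the receptor gene Tgfbr2 (0.14), Ccn2 (0.28) and Smad4 (-0.25), all with overlapping arrays.

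Macrophage genes and genes of antigen presentation had medians above that of all genes, and 0 of their members passed. The macrophage and monocyte list had 4 of 19 members higher and 0 lower at an unadjusted p under 0.05, beside 15.7% and 12.4% of all genes, and 1 higher without WT sham 3, with a median of 0.364, or 0.237 without WT sham 3. C1qb, a chain of complement C1q, read 1109, 1028 and 1356 in TIMP2-/- sham arrays and 773, 861 and 524 in WT sham arrays (0.72), and Csf1r, the receptor of macrophage colony-stimulating factor, overlapped (0.36), as did Lyz2, lysozyme (-0.06). All 6 measured MHC class II genes were positive, with a median of 0.442, or 0.274 without WT sham 3, and 3 were higher at that level, or 1 without that array. H2-Eb1 read 3104, 2886 and 3775 in TIMP2-/- sham arrays and 2575, 2816 and 1874 in WT sham arrays (0.44); H2-Ab1 had 0.45 and H2-Aa 0.28. TIMP3-/- sham kidneys, set against the same WT arrays, had 0.83 for H2-Eb1, 0.72 for H2-Ab1 and 0.78 for C1qb, and after UUO the TIMP2-/- differences of these 3 were 0.20, 0.11 and -0.06. The interferon-induced list was mixed, with 5 of 19 higher and 2 lower at an unadjusted p under 0.05 (3 and 1 without WT sham 3), a median of 0.187, and 0 passing. Its brightest members were Rsad2 (-0.74), Irf1 (0.19) and Psmb8 (0.29). Endothelial genes had a median of 0.331, or 0.228 without WT sham 3, with 0 of 14 passing, 2 higher and 1 lower at that level (0 and 1 without WT sham 3), near the shares of all genes. Plvap had 0.32, Emcn 0.07 and Eng 0.30.

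The transcripts that mark the labelled tissue were abundant on every array, and no tubule marker passed. Kap, an androgen-regulated proximal tubule protein, averaged 36362 in TIMP2-/- sham and 39539 in WT sham kidneys (-0.12), and Umod, the uromodulin of the thick ascending limb, averaged 23750 in TIMP2-/- sham and 24439 in WT sham kidneys (-0.04). The 21 proximal tubule genes had a median of 0.0866 with 0 passing and 0 at an unadjusted p under 0.05. Of 17 genes of the loop, distal tubule and collecting duct, 0 passed and 3 were lower at that level, or 0 without WT sham 3. Among tubular injury genes 0 of 16 passed, and 5 were higher and 3 lower at that level, beside 15.7% and 12.4% of all genes. Without WT sham 3, 0 tubular injury genes were higher and 2 lower. The brightest were Clu, clusterin (0.16), the keratin gene Krt8 (0.49) and Cd24a (-0.90). The injury marker Havcr1, taken up after its value was seen, overlapped at 145, 125 and 155 in TIMP2-/- sham arrays and 139, 150 and 143 in WT sham arrays.

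Clock genes were among the more divided lists, with 6 of 16 higher and 2 lower at an unadjusted p under 0.05, beside 15.7% and 12.4% of all genes, and 0 passing. Without WT sham 3 it was 4 and 2, beside 4.3% and 5.27%. Dbp, a clock-driven transcription factor, read 4885, 6400 and 6657 in TIMP2-/- sham arrays and 2331, 3586 and 2179 in WT sham arrays (1.17). Tef, its relative, had 0.64, and Bhlhe40, a repressor of the clock, 0.35. Per1, Nr1d1, Arntl and Nr1d2 were chosen after their values were seen. Per1 read 449, 499.9 and 615 in TIMP2-/- sham arrays and 269, 359.5 and 220.4 in WT sham arrays (0.90). Nr1d1 read 512, 659 and 536 in TIMP2-/- sham arrays and 331, 369 and 332 in WT sham arrays (0.72). Arntl, the partner of Clock, read 114, 108 and 86.1 in TIMP2-/- sham arrays and 194, 167 and 181 in WT sham arrays (-0.83). Nr1d2, a repressor related to Nr1d1, had the difference of largest size in the list: it read 576, 445 and 109 in TIMP2-/- sham arrays and 1081, 605 and 2322 in WT sham arrays (-1.92, or -1.41 without WT sham 3). The arrays of the groups did not overlap for any of them. In TIMP3-/- sham kidneys, against the same WT arrays, Dbp had 0.81, Per1 0.82 and Arntl -0.76, and after UUO the TIMP2-/- differences were -0.38, -0.42 and 0.30. The sources used here do not state the hour of sampling.

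A list of amino acid synthesis genes and targets of the stress factor ATF4 was drawn up after Asns and Phgdh had been seen, so its counts are a description. Of its 24 measured genes 0 passed, 20 were positive, 5 were higher and 0 lower at an unadjusted p under 0.05 (3 and 0 without WT sham 3), and the median was 0.301, or 0.236 without WT sham 3. Slc3a2, a subunit of amino acid transporters (0.33), Shmt2, of mitochondrial one-carbon metabolism (0.63), and Cth, of cysteine synthesis (-0.39), were the brightest, and Atf4 itself was at -0.09. The promoter windows of Asns and Per1 are shown because these genes stood for the amino acid and clock lists. Asns is on the minus strand at chr6:7693160-7693459 and Per1 on the plus strand at chr11:69098699-69098998 (RefSeq, GRCm38.p6), and this is 1 of the 2 Per1 windows there; the other held no CACGTG. Capitals mark TGATGNAA, the element bound by ATF4 with C/EBP partners, in Asns and the E-box CACGTG, bound by the clock's activators, in Per1, searched on both strands.
Asns: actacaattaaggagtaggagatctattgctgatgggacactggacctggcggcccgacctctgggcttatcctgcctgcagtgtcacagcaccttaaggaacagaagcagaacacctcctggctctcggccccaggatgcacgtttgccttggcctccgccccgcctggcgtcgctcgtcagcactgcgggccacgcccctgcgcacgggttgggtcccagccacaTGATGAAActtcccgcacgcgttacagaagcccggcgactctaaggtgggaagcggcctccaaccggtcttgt
Per1: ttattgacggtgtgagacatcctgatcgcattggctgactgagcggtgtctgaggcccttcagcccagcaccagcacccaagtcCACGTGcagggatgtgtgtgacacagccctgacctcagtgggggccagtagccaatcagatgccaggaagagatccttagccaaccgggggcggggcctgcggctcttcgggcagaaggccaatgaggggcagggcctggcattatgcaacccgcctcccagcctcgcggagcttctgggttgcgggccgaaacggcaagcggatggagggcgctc

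TGATGNAA was in at least 1 window of 8 of the 21 amino acid and ATF4 genes with an entry and of 4.51% of all 27025 genes searched. CACGTG was in a window of 5 of 15 clock genes with an entry and of 8.09% of all genes, and the window of Dbp held none. Genes of both lists were chosen for their known part in these pathways, so these shares are not a test. The letters are a description of sequence and say nothing about binding in these kidneys.

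**Figure D5:**
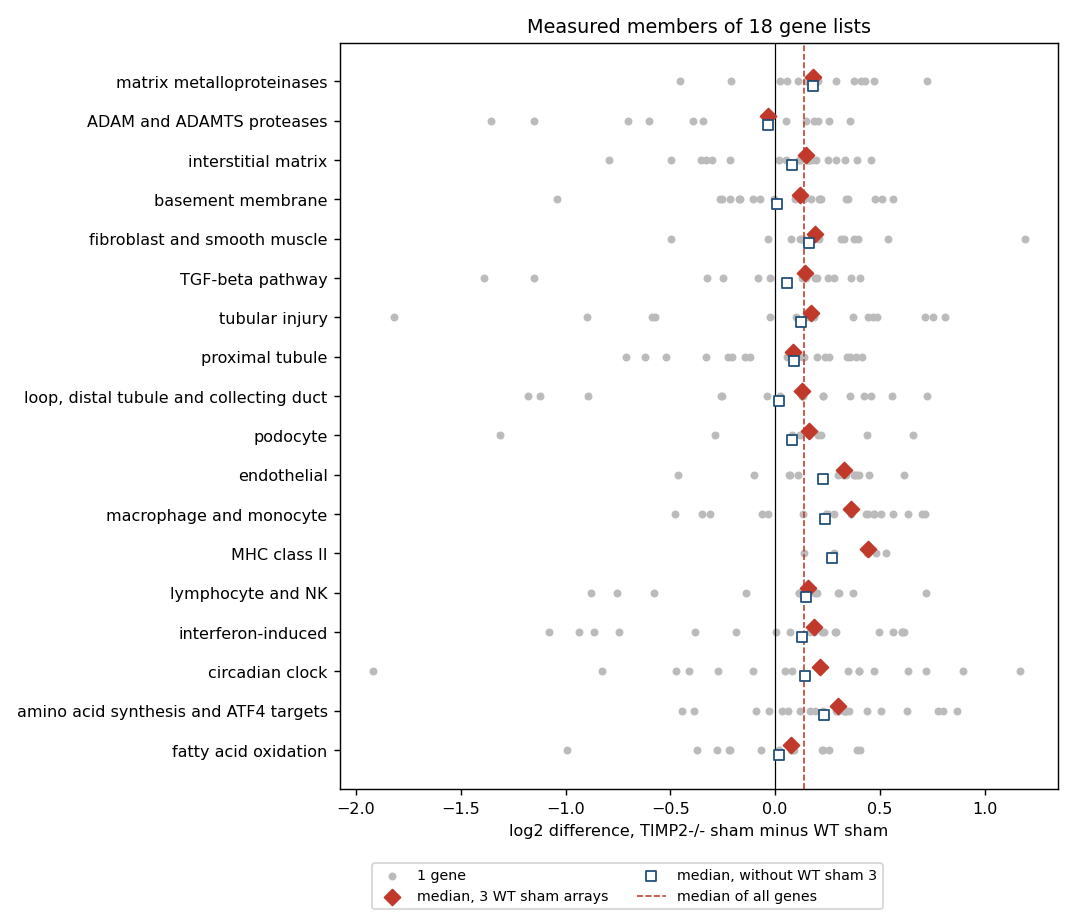
Log2 difference, TIMP2-/- sham minus WT sham, of every measured member (grey points, 1 gene each) of 18 gene lists, with the list median over all arrays (red diamonds) and without WT sham 3 (open squares); the dashed line is the median of all genes, 0.139. Most medians lie near the dashed line, the MHC class II (0.442), macrophage (0.364) and endothelial (0.331) lists lie above it, and most move down without WT sham 3.

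Metabolic lists held no gene that passed. Fatty acid oxidation had a median of 0.0748 with 0 of 15 higher and 2 lower at an unadjusted p under 0.05, or 0 lower without WT sham 3, with Hadh at 0.07, Acaa1b at 0.22 and Acadm at -0.37. Oxidative phosphorylation had a median of 0.0752 with 0 of 20 higher and 1 lower, or 0 lower without that array, and Cox6a1 (0.09), Cox5b (0.06) and Atp5b (0.07) were its brightest members. Of 13 kidney cytochrome P450 genes 0 passed, and the brightest were Cyp4b1 (0.10), Cyp2e1 (0.13) and Cyp2j5 (-0.63). Cyp27b1, the enzyme that makes active vitamin D and a gene singled out after its value was seen, read 253, 323 and 421 in TIMP2-/- sham arrays and 144, 109.8 and 156 in WT sham arrays (1.27; adjusted p = 0.143 by limma). Slc7a12, an amino acid transporter of the androgen-responsive list and likewise singled out, read 194, 125 and 46.5 in TIMP2-/- sham arrays and 856, 454 and 320.4 in WT sham arrays (-2.26). It kept its arrays apart after UUO as well (-1.58), and neither comparison passed.

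Markers of tissue that can accompany a kidney sample differed between arrays of 1 group. Adipoq, which fat cells secrete, read 66.4, 582 and 728 in TIMP2-/- sham arrays and 16.1, 52.0 and 156 in WT sham arrays, with overlap. Car3 (-0.87) and Fabp4 (-0.41), the brighter fat cell genes, overlapped as well. Of the 8 fat cell markers 0 passed and 2 were higher at an unadjusted p under 0.05, or 1 without WT sham 3, with a median of 0.338, and their mean log2 level relative to the mean of all 18 arrays was -1.03, -0.224 and -0.188 in TIMP2-/- sham arrays against -1.32, -1.24 and -0.52 in WT sham arrays. Urothelial markers had a median of 0.376 with all 9 positive, 0 passing and 2 higher at that level, or 0 without WT sham 3, led in brightness by Psca (0.38), Sprr1a (0.99) and Upk2 (0.29). Upk3b, chosen after its value was seen, read 159, 532 and 482 in TIMP2-/- sham arrays and 107, 239 and 135 in WT sham arrays. The mean level of the list was -0.98, -0.253 and -0.288 in TIMP2-/- sham arrays and -1.22, -0.75 and -1.05 in WT sham arrays. TIMP2-/- sham 1 was thus the lowest TIMP2-/- sham array on both lists, as it was on the first principal component (5.98). It also had the lowest TIMP2-/- sham readings of BC018473, Ctse, Asns and Phgdh given above, and of the Wdfy1 probe sets that did not pass. That was not so for the Wdfy1 probe set that passed, or for Myl4 or Lsm12. The 5 measured sex-linked genes had a median of -0.665, or -0.414 without WT sham 3. Of them 0 passed and 2 were lower at an unadjusted p under 0.05, or 0 without that array. The X-inactivation transcript Xist read 57.7, 75.5 and 64.4 in TIMP2-/- sham arrays and 66.7, 55.4 and 50.7 in WT sham arrays. These readings lay near the 25th percentile of the sham arrays' intensities (60.8 to 63.9). The Y-linked Kdm5d read 112, 97.9 and 97.4 in TIMP2-/- sham arrays and 144, 129 and 229 in WT sham arrays, without overlap, and Eif2s3y had a difference of -1.02. The part of these markers in the gene differences above was not tested.

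No probe set passed for a genotype difference that changed between operations, by limma, and 2015 had an unadjusted p under 0.05. The median size of the genotype difference, without regard to sign, was 0.253 after sham and 0.120 after UUO. Of the 6 Timp2 probe sets, the largest change was -2.01, which did not pass (adjusted p = 0.358 by limma).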

How the data were processed

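Whole-kidney RNA was hybridized to Affymetrix mouse arrays of 22690 probe sets. The deposited values are intensities made by the authors with RMA, per the submitters' processing notes, on a linear scale with no version or background step given in the sources used here. Their log2 values, with no pseudocount, were fitted with limma 3.58.1 in R 4.3.3 as 6 group means over 18 arrays, leaving out 64 control probe sets. Benjamini-Hochberg adjustment ran over all 22626 probe sets, and an adjusted p under 0.05 passed. A permutation test of 3 against 3 arrays cannot go below 0.1. The number of arrays limits the precision. One symbol was given for 20380 probe sets, several for 691 and none for 1555; 12369 of 12393 genes matched RefSeq, and a gene's level in lists is its probe set of highest mean log2 value. Up to 15 probe sets with a gene name per direction were named, first those that passed and then by smallest p without overlap, with all Timp2 probe sets, set TIMP and MMP genes, neighbours of Timp2, and the 3 brightest members of discussed lists. Members, the 43 lists and tests were chosen with earlier results of these data known. The fit was tested on simulated data. Same-numbered kidneys did not deviate together (correlations -0.199, -0.225 and -0.579), so they were not treated as pairs. Alternatives changed the arrays, the scaling, the filter, the prior and the probe sets.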

Additional observations from a re-analysis of the deposited data

Results flagged for a closer look

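The poly-A spike-in probe set DapX-3, a control outside the gene comparison, averaged 1997 ± 198 in TIMP2-/- sham arrays and 1043 ± 465 in WT sham arrays (SD, n = 3 each). It was singled out as a signal in data the comparison does not use, and every TIMP2-/- array lay above every WT array.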

How the results depend on the processing

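The count of 5 passing probe sets was 2 in fits of the 9 sham arrays or of the 6 arrays alone, 2 with dim probe sets left out, 2 with the mean of a gene's probe sets, 1 with the brightest probe set per gene, 3 without WT sham 3, WT UUO 2 and TIMP3-/- UUO 2, and 3 without WT sham 3 and TIMP2-/- sham 3, an alternative chosen after seeing the data. Leaving out 1 array gave 2 (without WT sham 2) to 10 (without TIMP2-/- sham 1), with 3 without WT sham 1 or 3. It was 5 with the replicate block, with 50 added, after centring and with a trended and robust prior, and 4 after quantile normalization and without probe sets ending in _s_at or _x_at. Fits of fewer arrays share a smaller pool of spread, and the cause of the other changes was not tested. The 2 that also passed after UUO became 1 with dim probe sets left out, which removes BC018473, and 1 with the brightest per gene. The 0 for a change of the genotype difference between operations ranged from 0 to 1 when 1 array was left out, 1 without WT sham 2. Reck reversed to -0.07274 without WT sham 3, alone or with the UUO arrays, and to -0.06158 without WT sham 3 and TIMP2-/- sham 3, with a range of -0.07274 to 0.2326 over single arrays. Mmp14 reversed to -0.02209 and -0.08843 in the same settings and to -0.005384 as a mean over probe sets, with a range of -0.02209 to 0.2685 over single arrays. Timp1 was -0.1425 without WT sham 3 and TIMP2-/- sham 3. The dim Timp2 probe set takes the values -0.8632 and -0.3832 where the brightest probe set or the mean stands for the gene. The replicate block changed no call except that of the second unnamed probe set (adjusted p = 0.0648 by limma) and added 1 other; numbers were not treated as pairs. Of 801 values for 43 named probe sets, 763 kept their direction and side of the threshold. Another background correction and slide as a block were not run, since no scanner files were used here.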
